A study of Mus musculus with 12 samples.

Results

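TRBV14 and TRBV15 are neighbouring variable segments of the mouse T cell receptor beta locus, known in serology as Vbeta13 and Vbeta12. Their members here were the productive beta chain clonotypes, those with a covered CDR3 in frame and free of stop codons, whose best V hit was TRBV14 or TRBV15. The pair held 52247 of 572021 productive beta clonotypes and 110999 of 1233404 reads over the 12 libraries. TRBV14 had 28836 clonotypes with 66365 reads, and TRBV15 had 23411 clonotypes with 44634 reads. In none of these reads did a second V segment reach the same score (0 reads). The segments were picked for their different usage in the CD4 and CD8 lineages, so their shares in those lineages are given as a description, and tests are kept to measures the choice did not use.

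The 12 libraries were made from thymocytes sorted on CD4 and CD8 alone, either single-positive for CD4 (CD4SP) or for CD8 (CD8SP). The donors were wild type (WT) or Chrna9-/- (knockout, KO) animals, the latter without the alpha 9 subunit of nicotinic acetylcholine receptors. The 4 groups, WT CD4SP, KO CD4SP, WT CD8SP and KO CD8SP, held 3 libraries each, from 3 numbered mice per genotype. These mice formed 3 pairs, 2 male and 1 female, but the labels do not say which number is the female pair, and they give neither strain nor age. CD4SP libraries were made from 1000000 sorted cells and CD8SP libraries from 330000, so cell number and cell type cannot be told apart. The deletion of Chrna9 cannot be checked in receptor sequences. The comparisons asked whether the knockout altered use of these segments in thymocytes that pass selection, and how receptors built on them differed between the lineages.

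The beta chain is made by joining a V, a D and a J segment. The V segment carries the CDR1 and CDR2 loops, which mostly contact the helices of the MHC molecule, while the junction forms CDR3, which mostly contacts the presented peptide. CD4SP thymocytes are selected on MHC class II and CD8SP thymocytes on MHC class I. Some mouse Vbeta segments, Vbeta12 among them, are recognised by superantigens of endogenous mammary tumour viruses, which remove T cells carrying those segments in strains with the matching provirus.

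In the RefSeq annotation of GRCm38.p6 (mm10), TRBV14 spans positions 41135167 to 41135616 and TRBV15 positions 41141211 to 41141658 of chromosome 6. Both are annotated as V segments, and 5594 bases separate them. TRBV13-3 ends 4581 bases before TRBV14, TRBV16 starts 10132 bases after TRBV15, and TRBD1 lies 391542 bases after TRBV15. The germline loops are shown because they are the fixed part that tells the segments apart, read from the deposited sequences, with capitals at the bases where TRBV14 and TRBV15 differ.
TRBV14 CDR1: tcTggAcaTGatACc
TRBV15 CDR1: tcAggCcaCAatGAc
TRBV14 CDR2: ttTcgGGATGagGctGtt
TRBV15 CDR2: ttCcgCAGCAagTctCtt
The segments differ at 6 of 15 bases in CDR1 and 8 of 18 in CDR2. Among productive reads with the loop covered, these CDR1 sequences made up 99.7% of TRBV14 reads and 99.7% of TRBV15 reads. The CDR2 sequences made up 99.7% and 99.5%. The V end, from the conserved cysteine codon, is the part each segment gives to CDR3 before trimming.
TRBV14 V end: tgtgccagcagtttct
TRBV15 V end: tgtgccagcagtttagc
It was untrimmed in 8.18% of TRBV14 reads and 5.01% of TRBV15 reads. The J segments on which the results below turn bring the following ends to CDR3, up to the conserved phenylalanine codon.
TRBJ1-1: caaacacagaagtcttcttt
TRBJ2-1: taactatgctgagcagttcttc
TRBJ2-4: agtcaaaacaccttgtacttt
TRBJ2-5: aaccaagacacccagtacttt
TRBJ2-7: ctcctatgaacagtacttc

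Productive TRB reads numbered 74021 to 104434 per CD4SP library and 92648 to 134169 per CD8SP library. TRBV14 had 1726 to 2389 reads in a CD4SP library and 7374 to 10454 in a CD8SP library, and TRBV15 had 2799 to 4274 and 3109 to 4685. Clonotypes seen as a single read held 25.1% to 31.5% of reads in CD4SP libraries but 12.3% to 15.8% in CD8SP libraries. Invariant natural killer T cells, which a CD4 and CD8 gate can include, were marked by their TRAV11 to TRAJ18 join. It made up 5.27% to 8.51% of productive TRA reads in CD4SP libraries and 0.0588% to 0.124% in CD8SP libraries, while their usual beta partners (TRBV13-2, TRBV29 and TRBV1) do not include these segments. The TRAV1 to TRAJ33 join of mucosal-associated invariant T cells had 3 to 15 reads in a library, and TRD joins made up 0.686% to 1.16% of reads. The part of these cells in the differences below was not tested.

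TRBV14 was the most CD8-leaning of the 21 TRBV segments that averaged 0.1% or more of reads, and TRBV15 was used at nearly the same level in both lineages. In WT CD4SP libraries, TRBV14 made up 2.26%, 2.17% and 2.33% of productive TRB reads, and in KO CD4SP libraries 2.29%, 2.10% and 2.27%. In WT CD8SP libraries it made up 7.96%, 7.51% and 7.79%, and in KO CD8SP libraries 7.60%, 8.19% and 7.51%. Every CD8SP library lay far above every CD4SP library, and within a lineage the genotypes overlapped. The mean share was 2.24% ± 0.0869 (SD, n = 6) in CD4SP and 7.76% ± 0.274 (SD, n = 6) in CD8SP, a 3.47-fold difference.

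TRBV15 made up 3.66%, 3.68% and 3.78% of productive TRB reads in WT CD4SP libraries and 4.09%, 3.66% and 3.98% in KO CD4SP libraries. In WT CD8SP libraries its share was 3.36%, 3.49% and 3.49%, and in KO CD8SP libraries 3.61%, 3.48% and 3.38%. The CD4SP libraries were slightly higher, with no overlap with the CD8SP libraries, and the share was higher in CD4SP in 6 of 6 mice. The mean was 3.81% ± 0.187 (SD, n = 6) in CD4SP against 3.47% ± 0.0905 (SD, n = 6) in CD8SP, a 1.10-fold difference. Since the shares of a library sum to a fixed total, this small difference depended on the scaling. Its log2 difference (CD4SP minus CD8SP) was 0.13 on library totals, which is also the median of all 23 segments fitted, and -0.03 with DESeq2 size factors. TRBV14 was at -1.80 and -1.96 on the same scalings. In bulk samples, fewer cells using a segment and less receptor RNA per cell cannot be told apart.

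**Figure D1:**
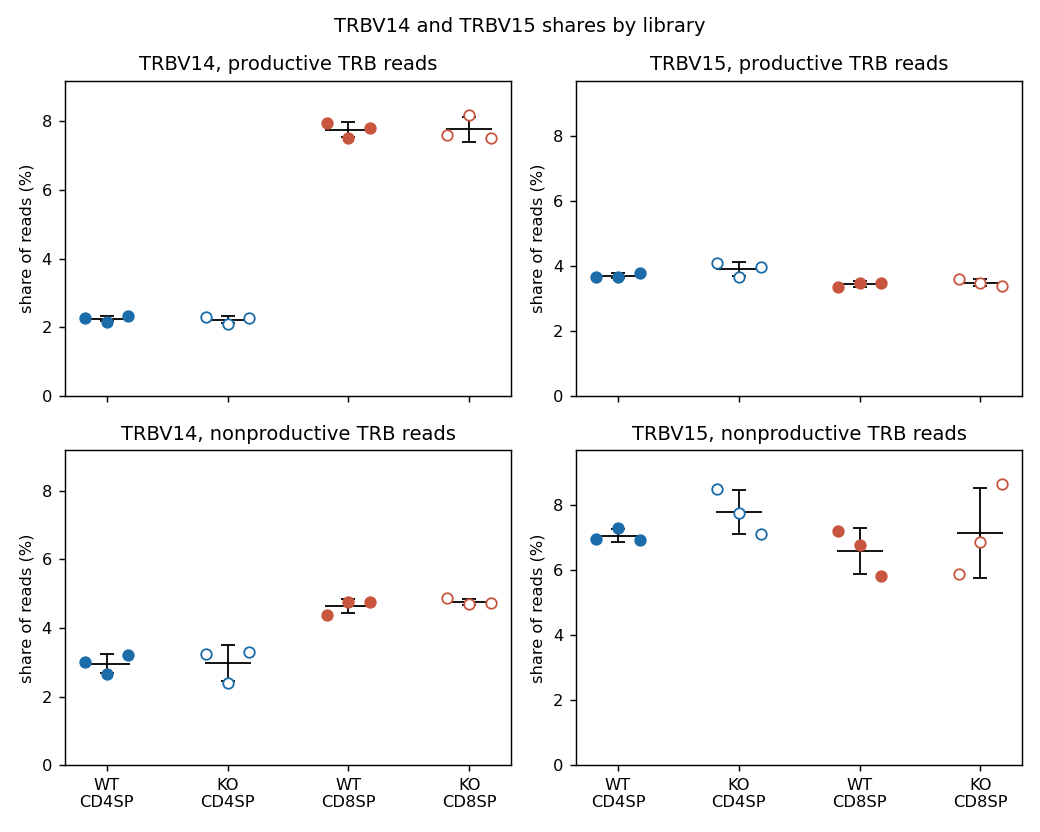
Share of TRB reads (percent, vertical axes) of TRBV14 and TRBV15 in each library by group, among productive reads (upper panels) and nonproductive reads (lower panels), with group means and SD (n = 3); filled points are WT and open points KO. Productive TRBV14 lies near 2.24% in CD4SP and 7.76% in CD8SP libraries, TRBV15 near 3.81% and 3.47%, and the nonproductive TRBV14 shares lie closer together (2.97% and 4.70%).

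In the order of levels, TRBV14 stood 12th in CD4SP and 6th in CD8SP. Its CD4SP values overlapped neither those of the segment above it, TRBV3 (2.85% ± 0.18, SD, n = 6), nor those of the segment below, TRBV17 (1.92% ± 0.0608, SD, n = 6). In CD8SP its values overlapped those of TRBV12-1 (8.77% ± 0.887, SD, n = 6) but not those of TRBV17 (6.02% ± 0.286, SD, n = 6). TRBV15 stood 7th in CD4SP, where its values overlapped those of TRBV13-2 (4.05%), TRBV20 (3.69%) and TRBV26 (3.56%), so this order is not settled. In CD8SP it stood 10th, overlapping TRBV12-2 (3.77%) but not TRBV13-2 (2.91%).

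**Figure D2:**
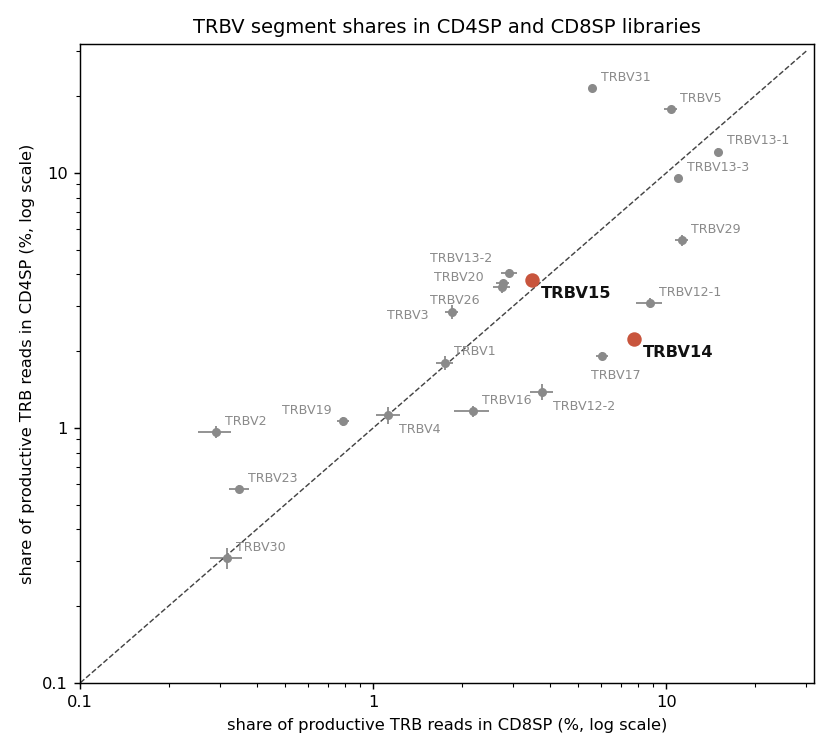
Mean share of productive TRB reads in CD4SP (percent, log axis, vertical) against that in CD8SP (percent, log axis, horizontal) for the 21 TRBV segments of at least 0.1%, with SD bars (n = 6) and a dashed line of equal shares. TRBV14 lies far below the line (2.24% and 7.76%) and TRBV15 just above it (3.81% and 3.47%).

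The segments on either side along the locus did not share 1 pattern. TRBV13-3, before TRBV14, had a share of 9.56% ± 0.118 in CD4SP and 10.9% ± 0.333 in CD8SP (SD, n = 6). TRBV16, after TRBV15, made up 1.16% ± 0.0527 and 2.19% ± 0.3 (SD, n = 6). Over all 23 segments fitted, 82.6% differed between lineages (edgeR), 47.8% higher in CD4SP and 34.8% lower, so a difference as such sets neither segment apart. Of the 21 segments, 8 were lower in CD4SP in 6 of 6 mice and 10 were higher in 6 of 6. Of the 7 segments on a list of superantigen-reactive segments, TRBV15 and TRBV26 (3.56% in CD4SP and 2.74% in CD8SP) were higher in CD4SP in 6 of 6 mice. TRBV12-1, TRBV12-2, TRBV16, TRBV17 and TRBV29 were lower in CD4SP in 6 of 6 mice. Over the 12 libraries, the log2 shares most like that of TRBV14 were those of TRBV17 (Pearson r = 0.996), TRBV29 (0.993) and TRBV12-1 (0.986). Within the 6 CD4SP libraries these correlations were -0.0522, -0.0869 and -0.160, and within the 6 CD8SP libraries -0.0523, 0.767 and -0.620. For TRBV15 the most alike were TRBV23 (r = 0.853), TRBV2 (0.828) and TRBV13-2 (0.803), with 0.681, 0.376 and 0.0178 within CD4SP and 0.776, 0.825 and 0.530 within CD8SP. All shares of a library have the same total, so these coefficients describe the libraries only.

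Neither segment passed the test between genotypes. TRBV14 had a mean share of 2.25% ± 0.0821 in WT and 2.22% ± 0.105 in KO CD4SP libraries, and 7.75% ± 0.227 and 7.76% ± 0.369 in CD8SP libraries (SD, n = 3 each). TRBV15 had 3.71% ± 0.0658 and 3.91% ± 0.227 in CD4SP, and 3.45% ± 0.0780 and 3.49% ± 0.113 in CD8SP. The KO and WT libraries overlapped in each case. The log2 fold changes (KO minus WT) of TRBV14 were -0.02 in CD4SP and 0.0027 in CD8SP, and those of TRBV15 were 0.08 and 0.02, with adjusted p = 0.999 for both in CD4SP and 0.959 for both in CD8SP (edgeR quasi-likelihood test). Across all 23 segments 0% passed in either lineage, none had an unadjusted p under 0.05 (0 segments), and DESeq2 also called 0. Whether the genotype effect differed between lineages was tested by an interaction, which gave an adjusted p = 0.9 for both segments (edgeR) and called 0% of segments. DESeq2 called 0 there, with 1 segment at an unadjusted p under 0.05.

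Joins out of frame or with a stop codon are not displayed as receptors, and they were not used to choose the segments. TRBV14 was less used in these reads of CD4SP than of CD8SP, although by less than in productive reads, and TRBV15 did not pass the test. In CD4SP libraries TRBV14 made up 3.01%, 2.65% and 3.21% (WT) and 3.25%, 2.39% and 3.31% (KO) of nonproductive TRB reads. In CD8SP libraries it made up 4.39%, 4.76% and 4.76% (WT) and 4.86%, 4.70% and 4.73% (KO). The lineages did not overlap, with means of 2.97% ± 0.373 and 4.70% ± 0.162 (SD, n = 6). The log2 difference was -0.67 (SE 0.162, adjusted p = 0.00101, edgeR), where 31.8% of the 22 segments tested passed, 18.2% higher in CD4SP and 13.6% lower. Each value rests on few reads, 47 to 77 per CD4SP and 56 to 90 per CD8SP library. Some of these reads lie 1 inserted or deleted base from a productive join of the same library and segments, and such reads made up 1.67% to 8.77% of TRBV14 nonproductive reads in CD4SP but 14.3% to 23.8% in CD8SP. Without them the shares were 2.81% ± 0.366 and 3.83% ± 0.209 (SD, n = 6), and the call was lost (log2 difference -0.45, adjusted p = 0.0502, edgeR). Reads 1 substituted base from a productive join were not screened, and any such reads remain in these shares.

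TRBV15 made up 6.98%, 7.29% and 6.94% (WT) and 8.50%, 7.78% and 7.12% (KO) of nonproductive reads in CD4SP libraries. In CD8SP libraries it made up 7.21%, 6.78% and 5.82% (WT) and 5.90%, 6.88% and 8.65% (KO). These groups overlapped, and the log2 difference of 0.12 had an adjusted p = 0.341 (edgeR). Set against the nonproductive share, the productive share of TRBV15 was 0.514 ± 0.0351 times as large in CD4SP and 0.515 ± 0.0831 times in CD8SP. For TRBV14 the same ratio was 0.760 ± 0.0737 in CD4SP and 1.65 ± 0.102 in CD8SP (SD, n = 6). TRBV15 was thus rarer among productive than nonproductive reads in both lineages, and TRBV14 in CD4SP alone. The ratio uses the productive reads that served to choose the segments and has no test.

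CD4SP joins also found in CD8SP libraries were counted by V segment and CDR3 bases. Where shared joins come from was not tested. Of the distinct TRBV14 joins in CD4SP libraries, 4.83% ± 1.13 (SD, n = 6) were also in the CD8SP library of the same mouse, against 1.49% ± 0.195 in those of the other mice (higher in 6 of 6 mice, p = 0.03125 by exact two-sided sign flips, the minimum for 6 mice). The same shares were 2.13% ± 0.425 and 1.15% ± 0.146 for TRBV15, and 3.25% ± 0.243 and 1.74% ± 0.0365 for the other segments. Counted over the CD8SP joins instead, those shared within a mouse made up 1.69% ± 0.325 for TRBV14. They made up 2.42% ± 0.437 for TRBV15 and 3.61% ± 0.296 for the other segments (SD, n = 6). The order of the segments thus depends on which lineage is the base. TRBV14 reads outside the joins shared within a mouse made up 2.12% ± 0.101 of all productive CD4SP reads, against 2.24% for all TRBV14 reads. The total still held the shared joins of every segment, so this value could only be lower.

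With the number of reads per V segment held fixed, the J segments joined to TRBV14 and to TRBV15 differed between the lineages. J segments give the last part of CDR3. In 248 pairings of a V and a J segment, 50.4% passed the test (edgeR, adjusted p under 0.05), 28.2% higher in CD4SP and 22.2% lower. Of 12 J segments tested with TRBV14, 4 were higher in CD4SP and 3 lower, and with TRBV15 4 were higher and 5 lower. The median log2 difference was 0.02 for TRBV14 and -0.05 for TRBV15 pairings, against 0.04 over all pairings. TRBJ2-4 and TRBJ2-5 were higher in CD4SP, and TRBJ2-1 and TRBJ2-7 lower, with both V segments.

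TRBJ2-5 was the J segment that rose most in CD4SP within TRBV14. It took 17%, 17.4% and 19.4% of TRBV14 reads in CD4SP (lowest, median and highest of 6 libraries) against 12.7%, 13.1% and 13.9% in CD8SP. The lineages did not overlap, and the log2 difference was 0.44 (SE 0.0554, adjusted p = 7.63e-09, edgeR). TRBJ2-4 took 11.9% ± 1.05 and 9.54% ± 0.674 (SD, n = 6), higher in CD4SP in 6 of 6 mice with a log2 difference of 0.32. The sharpest fall within TRBV14 was that of TRBJ1-1, which took 4.62%, 5.63% and 6.70% in CD4SP against 7.22%, 7.94% and 8.44% in CD8SP. It was lower in CD4SP in 6 of 6 mice without overlap, by a log2 difference of -0.48 (SE 0.0846, adjusted p = 4.63e-06, edgeR). TRBJ2-7, the most used J segment of TRBV14, took 23.0% ± 1.62 and 27.7% ± 0.876, a log2 difference of -0.27. TRBJ2-1 took 12.9% ± 1.02 and 14.9% ± 1.04, a log2 difference of -0.20, and TRBJ1-3 took 3.29% ± 0.641 and 2.62% ± 0.271, a log2 difference of 0.32. TRBJ2-2 also passed, at 0.21. Without clonotypes of 1 read 4 J segments of TRBV14 passed, and the calls of TRBJ2-1 (adjusted p = 0.0960), TRBJ1-3 (0.204) and TRBJ2-2 (0.0598) were lost in edgeR. The TRBJ1-3 call was also lost without WT mouse 1 (log2 difference 0.22, adjusted p = 0.155, edgeR) and without WT mouse 3 (0.31, adjusted p = 0.0563). The TRBJ2-2 call was lost in DESeq2 and without WT mouse 1, WT mouse 3, KO mouse 1 or KO mouse 2, with log2 differences of 0.13 to 0.22.

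Within TRBV15, TRBJ2-4 rose most in CD4SP, and TRBJ2-1 and TRBJ1-5 fell by nearly the same amount. TRBJ2-4 took 12.7%, 13.3% and 14.1% of TRBV15 reads in CD4SP (lowest, median and highest) against 8.07%, 9.01% and 9.97% in CD8SP. Its log2 difference was 0.57 (SE 0.0701, adjusted p = 3.87e-09, edgeR), with no overlap between lineages. TRBJ2-1 took 9.93%, 10.7% and 11% in CD4SP against 14.4%, 15.8% and 17.3% in CD8SP. This was a log2 difference of -0.57 (SE 0.0644, adjusted p = 5.28e-10, edgeR), again without overlap. TRBJ2-5 was less used with TRBV15 than with TRBV14, at 9.07% ± 1.05 in CD4SP and 6.48% ± 0.595 in CD8SP (SD, n = 6), a log2 difference of 0.48. TRBJ1-5, at 1.33% ± 0.158 in CD4SP and 1.99% ± 0.425 in CD8SP, fell by 0.56 on the log2 scale. TRBJ1-2, at 1.56% ± 0.332 and 2.07% ± 0.26, fell by 0.42, a call that was lost without KO mouse 1 (log2 difference -0.37, adjusted p = 0.0674, edgeR). TRBJ2-7 took 26.6% ± 0.145 and 29.3% ± 1.23, a log2 difference of -0.14 that was lost without clonotypes of 1 read (adjusted p = 0.0572, edgeR). The calls of TRBJ1-3 (0.35), TRBJ2-2 (0.23) and TRBJ1-4 (-0.24) were each lost in DESeq2 and without 2 to 4 of the 6 mice left out in turn, among them WT mouse 3 and KO mouse 2 in each case.

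**Figure D3:**
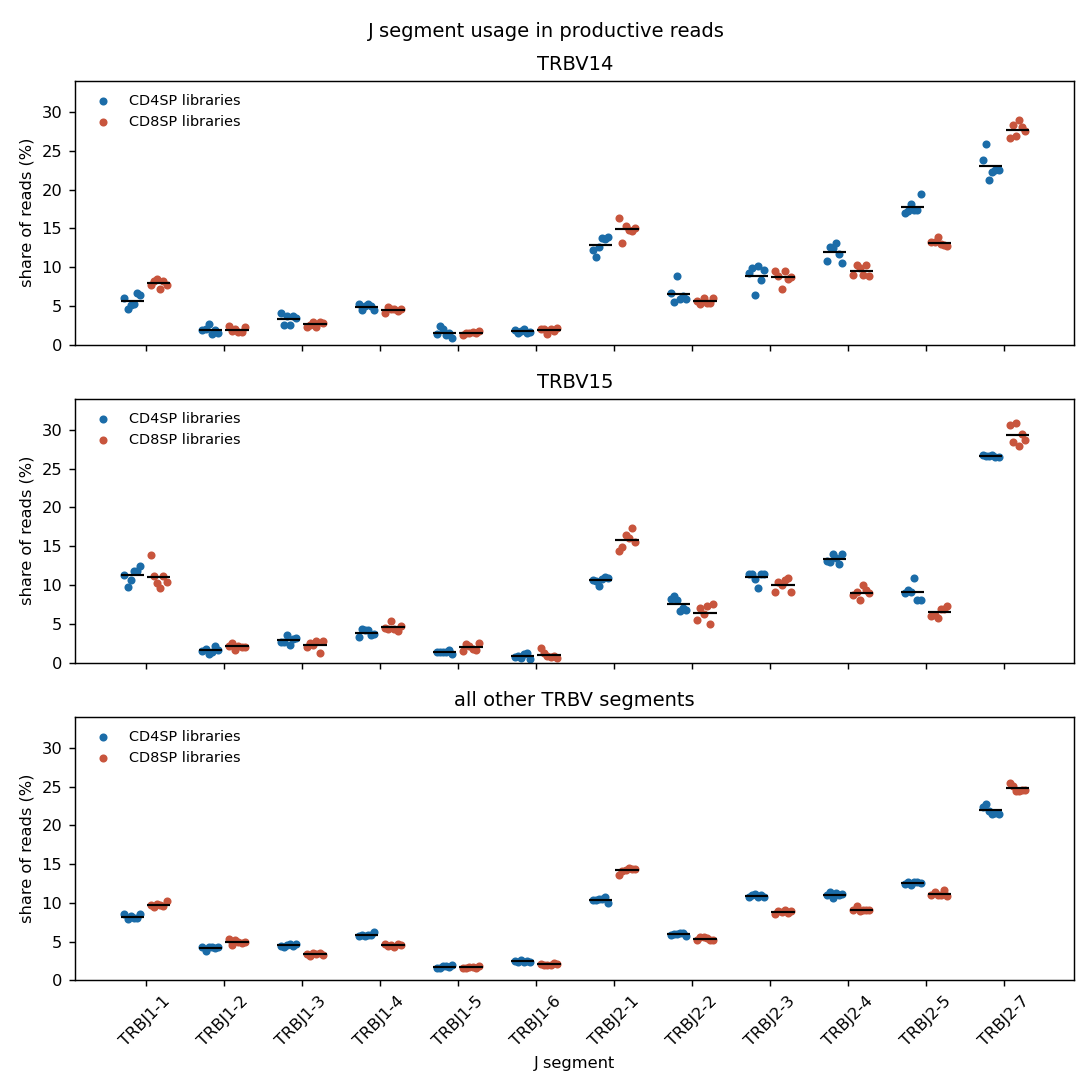
Share of productive reads (percent, vertical axes) by J segment (horizontal axis) within TRBV14, within TRBV15 and within all other TRBV segments, with a point for each of 6 CD4SP and 6 CD8SP libraries and a line at the mean. TRBJ2-5 within TRBV14 (17.8% against 13.1%) and TRBJ2-4 within TRBV15 (13.4% against 9.02%) are higher in CD4SP, and TRBJ2-1 within TRBV15 (10.6% against 15.8%) is lower.

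The pooled reads of the other TRBV segments differed in the same direction for most of these J segments. TRBJ2-5 took 12.6% ± 0.161 of them in CD4SP and 11.2% ± 0.286 in CD8SP (SD, n = 6). TRBJ2-4 took 11.1% and 9.15%, TRBJ2-1 took 10.4% and 14.2%, and TRBJ2-7 took 21.9% and 24.8%. TRBJ1-4 went the other way from TRBV15, at 5.85% ± 0.187 in CD4SP and 4.53% ± 0.149 in CD8SP (higher in 6 of 6 mice), against 3.85% ± 0.410 and 4.57% ± 0.449 within TRBV15 (lower in 6 of 6 mice). The difference between these V segments and the rest was not tested for a single J.

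CDR3 length also differed between lineages within each segment. Of 189 pairings of a V segment and a length, 63.5% passed the test (edgeR), 24.9% higher in CD4SP and 38.6% lower. For TRBV14, 1 of 10 lengths was higher in CD4SP and 4 were lower, and for TRBV15 2 of 9 were higher and 4 lower. The median log2 difference over the lengths tested was 0.04 for TRBV14 and -0.14 for TRBV15, against -0.15 over all pairings. Loops of 13 residues rose in CD4SP with both V segments. Within TRBV15 they made up 33.0%, 35.7% and 36.2% of reads in CD4SP (lowest, median and highest) against 22.6%, 24.8% and 26.4% in CD8SP, with no overlap. The log2 difference was 0.51 (SE 0.0380, adjusted p = 6.95e-21, edgeR). Within TRBV14 they made up 26%, 27.2% and 28% against 20.1%, 21.4% and 22.6%, also without overlap. Here the log2 difference was 0.34 (SE 0.0394, adjusted p = 2.45e-12, edgeR). In the other TRBV reads, 13 residues made up 23.0% ± 0.377 in CD4SP and 18.9% ± 0.187 in CD8SP (SD, n = 6).

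Long loops of TRBV15 were the ones most reduced in CD4SP. Those of 16 residues made up 2.31%, 3.07% and 3.78% in CD4SP against 6.33%, 6.42% and 7.56% in CD8SP. This difference, without overlap, was -1.14 on the log2 scale (SE 0.102, adjusted p = 1.06e-16, edgeR). Those of 17 residues fell by 1.07, those of 15 by 0.51 and those of 14 by 0.14 on the log2 scale, and those of 11 residues rose by 0.27. Within TRBV14, loops of 11, 15 and 16 residues fell. Its loops of 11 residues made up 4.03% ± 0.820 in CD4SP and 6.01% ± 0.805 in CD8SP (log2 difference -0.57), and those of 16 residues 4.86% ± 1.07 and 6.55% ± 0.594 (-0.43), each lower in 6 of 6 mice. The outermost lengths tested did not pass, with loops of 10 residues at 1.2% ± 0.358 in CD4SP and 0.911% ± 0.136 in CD8SP. Its loops of 15 residues fell by 0.15, and a call at 12 residues (-0.13) was lost in DESeq2, without clonotypes of 1 read and without WT mouse 1, WT mouse 2 or KO mouse 2. At 11 residues the directions of the segments were opposite, since these loops made up 6.21% ± 0.739 of TRBV15 reads in CD4SP and 5.17% ± 0.690 in CD8SP (SD, n = 6), higher in CD4SP in 6 of 6 mice. The other TRBV reads had 4.29% and 5.48% there.

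**Figure D4:**
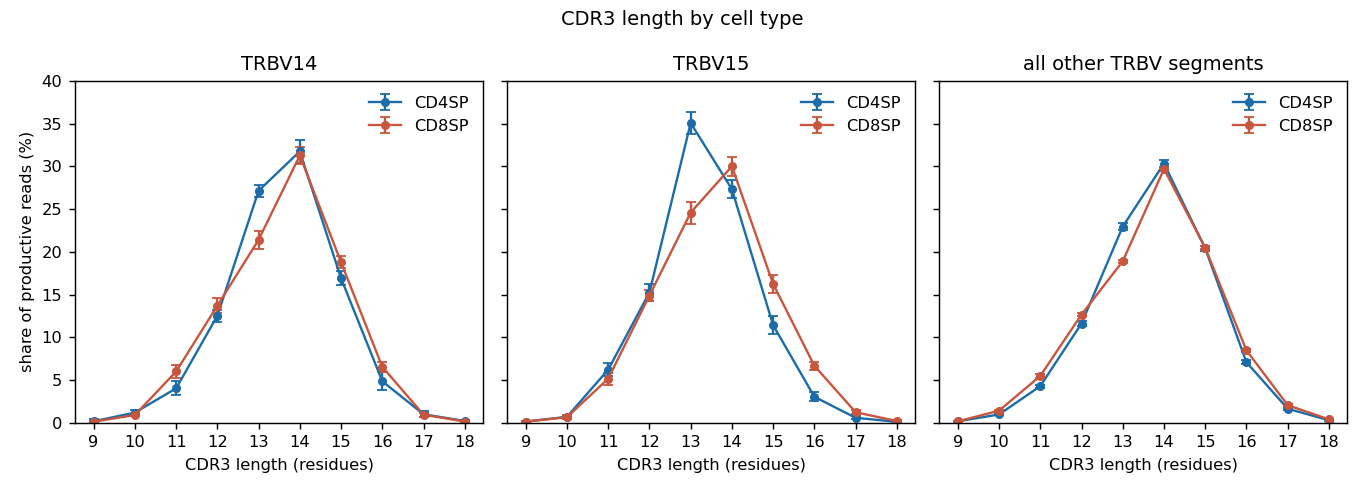
Share of productive reads (percent, vertical axis) by CDR3 length in residues (horizontal axes) within TRBV14, TRBV15 and all other TRBV segments, as means of 6 CD4SP and 6 CD8SP libraries with SD bars. Loops of 13 residues are higher in CD4SP in each panel (35.1% against 24.6% for TRBV15), and TRBV15 loops of 16 residues are lower (3.04% against 6.67%).

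Single values per library were compared by exact two-sided sign flips over the 6 mice, adjusted over 204 tests (17 segments and 12 measures), where 6 mice allow no p below 0.03125. For the difference between lineages alone, 0% passed, since the smallest adjusted p was 0.0506 (exact test). For the same difference set against that of all other TRBV reads, 65.2% passed, each at the smallest adjusted value of 0.0479 (exact test). The other reads also change in their mix of V segments between lineages, so this second comparison holds that change too. In each tested comparison the other reads are those of all V segments except the one described. The levels printed for the other TRBV reads leave out both TRBV14 and TRBV15, so they differ slightly from those tested.

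TRBV15 loops were shorter in CD4SP. Their mean length was 13.3 residues ± 0.0394 in CD4SP and 13.6 ± 0.0302 in CD8SP (SD, n = 6), a difference of -0.289 ± 0.0467 per mouse, negative in 6 of 6 mice. Against the other TRBV reads the difference was -0.285 ± 0.0490 (adjusted p = 0.0479, exact sign flips). The bases between the V and J ends numbered 8.57 ± 0.0882 in CD4SP and 9.44 ± 0.122 in CD8SP, a difference of -0.868 ± 0.144 and of -0.782 ± 0.127 against the other reads. Other features of the junction differed in the same mice, 6 of 6 each. Bases added beside the D segment numbered 2.32 ± 0.0293 and 2.54 ± 0.0568, and joins with no recognisable D segment made up 29.1% ± 1.19 and 23.7% ± 1.05. The other TRBV reads had 2.53 and 2.52 added bases, and 28.6% and 27.8% of joins without a D segment. Part of this pattern was also seen in TRBV16, in 6 of 6 mice each. Its loops had 13.57 residues in CD4SP and 13.77 in CD8SP, with 7.90 and 8.79 bases between V and J. Joins without a D segment made up 36.5% and 29.2% of its reads. TRBV13-3 went the other way in length (13.71 and 13.57) and in bases between V and J (8.76 and 8.63), in 6 of 6 mice each.

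The mean length of TRBV14 loops passed in neither comparison. It was 13.6 residues in both lineages, with a difference of -0.0412 ± 0.0610 per mouse (adjusted p = 0.239, exact sign flips). Against the other TRBV reads the adjusted p was 0.499 (exact sign flips). The hydropathy of TRBV14 loops was lower, that is more polar, in CD4SP. The hydropathy of CDR3 positions 6 and 7, on the scale of Kyte and Doolittle, was -1.20, -1.23 and -1.18 in WT CD4SP libraries and -1.25, -1.35 and -1.22 in KO CD4SP libraries. In WT CD8SP libraries it was -1.10, -1.07 and -1.07, and in KO CD8SP libraries -1.08, -0.996 and -1.05. The lineages did not overlap. The difference was -0.179 ± 0.0913 (SD, n = 6), which by itself did not pass (adjusted p = 0.0506, exact sign flips). Against the other TRBV reads it was -0.18 ± 0.0803, which passed (adjusted p = 0.0479, exact sign flips). For TRBV15 the difference was 0.0345 ± 0.0764, positive in 4 of 6 mice. Its adjusted p was 0.371 by itself and 0.165 against the other reads (exact sign flips). Lower hydropathy in CD4SP was not particular to TRBV14, since TRBV13-3 and TRBV16, the segments on either side of the pair, had it in 6 of 6 mice. The medians of 6 libraries in CD4SP and CD8SP were -1.28 and -1.01 for TRBV16, and -1.13 and -1.04 for TRBV13-3. Net charge over the 5 middle residues of TRBV14 was -0.219 ± 0.00943 in CD4SP and -0.259 ± 0.0168 in CD8SP, less negative in CD4SP in 6 of 6 mice. That of TRBV13-3 was also less negative in CD4SP in 6 of 6 mice (-0.366 against -0.518). TRBV16 had -0.376 and -0.386, less negative in CD4SP in 4 of 6 mice.

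TRBD1 was the best D hit in 63.3% ± 1.23 of TRBV14 joins with a D segment in CD4SP and 60.0% ± 0.674 in CD8SP (SD, n = 6), higher in 6 of 6 mice. D hits of equal score were not screened as V hits were. The bases between V and J, from which D is read, numbered 9.15 in CD4SP and 9.59 in CD8SP for TRBV14. They were also fewer in CD4SP for TRBV15 and TRBV16, but not for TRBV13-3. TRBD2 lies after the TRBJ1 segments, and J usage was not held fixed. The part of these in the TRBD1 shares was not tested. In the other TRBV reads TRBD1 made up 55.8% ± 0.194 and 57.8% ± 0.406, lower in CD4SP in 6 of 6 mice. Neighbouring segments were higher in CD4SP as TRBV14 was, TRBV16 at 57.9% ± 3.15 against 53.1% ± 1.98 (6 of 6 mice), TRBV13-3 at 60.8% ± 1.11 against 59.3% ± 0.899 (5 of 6) and TRBV15 at 56.7% ± 1.37 against 55.1% ± 1.01 (5 of 6). The difference against all other reads was 5.24 percentage points ± 1.26 for TRBV14 and 3.67 ± 2.15 for TRBV15, each positive in 6 of 6 mice (adjusted p = 0.0479, exact sign flips). Reads per clonotype were 1.63 ± 0.0564 in CD4SP and 2.52 ± 0.105 in CD8SP for TRBV14, and 1.63 ± 0.0647 and 2.21 ± 0.101 for TRBV15, with 1.84 and 2.5 for the rest.

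**Figure D5:**
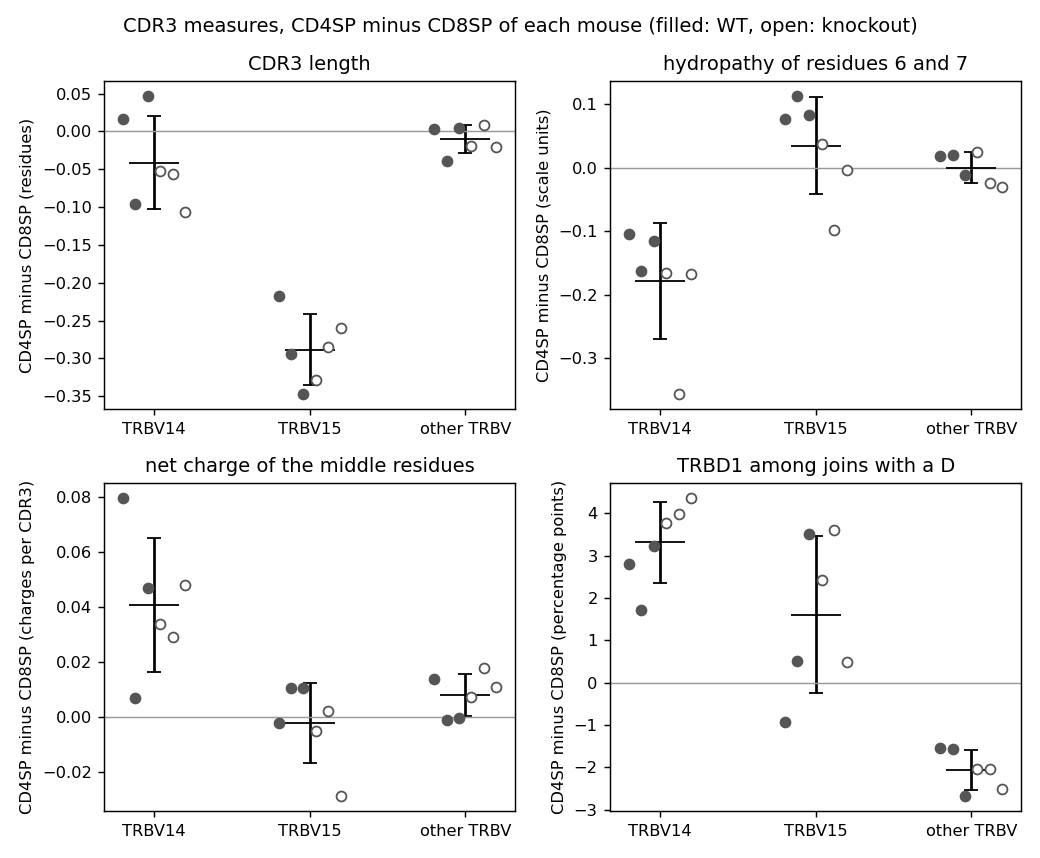
CD4SP minus CD8SP difference of each mouse (vertical axes: residues, scale units, charges per CDR3 and percentage points) in mean CDR3 length, hydropathy, net charge and TRBD1 share for TRBV14, TRBV15 and the other TRBV segments, with mean and SD (n = 6); filled points are WT and open points KO. All 6 TRBV15 points lie below 0 for length (mean -0.289) and all 6 TRBV14 points below 0 for hydropathy (mean -0.179), where 1 KO mouse lies lowest.

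The residues in the middle of CDR3, the 5 around its centre in loops of at least 8 residues, were tested within each segment. Of 401 pairings of a V segment and a residue 43.9% passed (edgeR), 21.4% higher in CD4SP and 22.4% lower. Of 19 residues tested with TRBV14, 5 were higher in CD4SP and 5 lower, and with TRBV15 4 were higher and 6 lower. The median log2 difference was 0.03 for TRBV14 and -0.01 for TRBV15, against 0.01 over all pairings. Glutamine (Q) rose with both segments. In TRBV14 it made up 6.59%, 6.98% and 7.64% of middle residues in CD4SP (lowest, median and highest) against 5.55%, 5.69% and 5.83% in CD8SP, with no overlap. The log2 difference was 0.31 (SE 0.0351, adjusted p = 8.93e-10, edgeR). In TRBV15 glutamine made up 6.46% ± 0.184 and 4.97% ± 0.193, a log2 difference of 0.38. It also made up 6.91% and 6.04% in the other TRBV reads.

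Several charged residues of TRBV14 changed. The basic residues lysine (K) and arginine (R) rose, from 0.627% ± 0.0457 in CD8SP to 0.892% ± 0.103 in CD4SP and from 6.27% ± 0.275 to 7.13% ± 0.361 (SD, n = 6). Their log2 differences were 0.51 (SE 0.1, adjusted p = 5.40e-05) and 0.18 (SE 0.0354, adjusted p = 3.59e-05, edgeR). Of the acidic residues, aspartate (D) rose by 0.20 and glutamate (E) fell by 0.20 on the log2 scale. Aspartate made up 7.74% ± 0.388 in CD4SP and 6.76% ± 0.182 in CD8SP within TRBV14, but 8.07% and 8.42% in the other TRBV reads. Arginine made up 5.81% and 6.05% and lysine 0.726% and 0.743% of the others. Asparagine (N) rose by 0.20, while alanine (A) fell by 0.17 and glycine (G) by 0.15. Tyrosine (Y, -0.12) and threonine (T, -0.08) also passed in TRBV14. The call of tyrosine was lost without 1-read clonotypes (adjusted p = 0.181, edgeR) and without WT mouse 1 (-0.09, adjusted p = 0.0551). That of threonine was lost in DESeq2 (adjusted p = 0.120) and without any of WT mice 1 and 2 and KO mice 1 and 2 (-0.09 to -0.05).

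In TRBV15, 4 residues rose and 6 fell. Phenylalanine (F) and leucine (L) rose in CD4SP, from 1.60% ± 0.102 to 1.94% ± 0.0748 and from 5.21% ± 0.0756 to 5.84% ± 0.254 (SD, n = 6). Their log2 differences were 0.28 (SE 0.0690) and 0.16 (SE 0.0396). Isoleucine (I), tryptophan (W), valine (V) and tyrosine (Y) fell, by 0.53, 0.34, 0.29 and 0.28. Tryptophan made up 2.08%, 2.17% and 2.27% of TRBV15 middle residues in CD4SP against 2.55%, 2.79% and 2.87% in CD8SP, with no overlap (adjusted p = 5.20e-06, edgeR). In the other TRBV reads it was higher in CD4SP in 6 of 6 mice (2.53% ± 0.0454 against 2.40% ± 0.0370), and phenylalanine was lower (0.696% ± 0.0113 against 0.784% ± 0.0336). Arginine, which rose in TRBV14, fell by 0.16 in TRBV15. Methionine (M) passed at 0.67 from shares of 0.161% ± 0.0268 and 0.1% ± 0.0222, but the call was lost without any 1 of 4 mice (WT mice 1, 2 and 3 and KO mouse 1, 0.54 to 0.69). J usage and length shape these residues, and their parts were not separated.

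A further comparison took clonotypes found in many libraries. Clonotypes defined by V segment and CDR3 residues and found in at least 6 of 12 libraries numbered 96 for TRBV14, 0.452% of its 21240 such clonotypes, and 99 for TRBV15, 0.569% of 17410. For all other segments they numbered 3184, or 0.867% of 367154. In CD4SP they held 3.97% ± 0.976 of TRBV14 reads and 5.57% ± 0.383 of TRBV15 reads (SD, n = 6), against 9.09% ± 0.217 for the others. In CD8SP they held 4.5% ± 0.221 and 4.57% ± 0.536, against 8.77% ± 0.284. None of TRBV14 or TRBV15 was found in all 12 libraries (0), while 48 of the other segments were. How often a clonotype is found depends on the depth of its V segment, so these shares were not tested.

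Of 3379 such clonotypes 0.385% passed between lineages (edgeR), 0.326% higher in CD4SP and 0.0592% lower, with 1 of TRBV15 and 0 of TRBV14 among them. Of the TRBV14 clonotypes 6 had an unadjusted p under 0.05, and DESeq2 called 1 of them, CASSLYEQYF. The TRBV15 clonotype was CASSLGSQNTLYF, a 13-residue loop made with TRBJ2-4. It met the minimum of 6 libraries through CD4SP libraries alone, as did 2 of the 99 TRBV15 clonotypes in all (0 of 96 for TRBV14, where 5 met it through CD8SP alone), so its difference is partly set by that choice, and its values are given as a description with no test. It had 11, 16 and 6 reads in WT CD4SP libraries, 13, 9 and 1 in KO CD4SP libraries, and 0 in all 6 CD8SP libraries. All 56 reads were therefore from CD4SP, in 13 nucleotide forms, and made up 0.277% of the 20190 TRBV15 reads there. In CD8SP, 0 of 24444 TRBV15 reads allow a share of up to 0.0123% (3 reads over the group). Its most read join is shown because it is nearly germline, beside that of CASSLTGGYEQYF, the most read TRBV14 clonotype of this kind, with junction bases in capitals.
TRBV15 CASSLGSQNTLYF: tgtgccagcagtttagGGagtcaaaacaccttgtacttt
TRBV14 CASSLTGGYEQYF: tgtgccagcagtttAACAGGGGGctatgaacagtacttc
The TRBV15 join has 2 bases not given by the V or J end and was read 18 times in 4 libraries. The TRBV14 join has 9 such bases and was read 25 times in 4 libraries. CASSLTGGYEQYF had 165 reads in 11 libraries, 1, 4 and 3 in WT CD4SP, 0, 1 and 2 in KO CD4SP, 27, 27 and 24 in WT CD8SP, and 15, 37 and 24 in KO CD8SP. Relative to TRBV14 usage its log2 difference was -1.74 (SE 0.829), which did not pass (adjusted p = 0.434, edgeR). The next most read TRBV14 clonotypes, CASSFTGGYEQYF with 144 reads, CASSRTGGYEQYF with 96 and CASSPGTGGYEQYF with 66, also used TRBJ2-7 in every read. For TRBV15, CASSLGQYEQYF with 58 reads, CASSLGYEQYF with 58 and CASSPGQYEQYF with 55 used TRBJ2-7 too, and none of these 6 passed the test (adjusted p = 0.459 to 0.929, edgeR).

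Within TRBV14 and TRBV15, no J segment, length, residue or shared clonotype passed between KO and WT. Over all TRBV segments edgeR called 0% of 248 J pairings, 0% of 189 length pairings, 0% of 401 residue pairings and 0% of 3379 clonotypes in either lineage, and DESeq2 called 0. The unadjusted p was under 0.05 for 8 J pairings in CD4SP and 7 in CD8SP, for 9 and 9 length pairings, for 17 and 27 residue pairings and for 87 and 163 clonotypes. The features of smallest p were TRBJ1-5 within TRBV14 in CD4SP (log2 fold change -0.67, SE 0.274, adjusted p = 0.981, edgeR) and TRBJ1-6 within TRBV15 in CD8SP (-0.77, SE 0.304, adjusted p = 0.936). For lengths, it was 11 residues within TRBV14 in CD4SP (0.37, adjusted p = 0.965, edgeR), and for residues, histidine (H) within TRBV14 in CD8SP (-0.29, adjusted p = 0.691). With 3 pairs the exact sign flips cannot go below p = 0.25, and 0% of 204 measures passed in either lineage. In counts simulated for KO against WT in CD4SP, 96% of the J pairings changed 2-fold were recovered, but 0% of the shared clonotypes changed 2-fold.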

How the data were processed

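Beta chain clonotype tables of 12 libraries were used, with the alpha and delta tables for markers of other cells. RNA of sorted thymocytes was made into SMARTer TCR libraries and read on a MiSeq, and the authors used MiXCR and VDJtools, per the design text among the labels. Each clonotype has a read count, per the file headers, and the fraction deposited by the authors beside it was used as a check only. The build mm10 is from the submitters' processing notes, and the MiXCR version and its filters are not given in the sources used here. These files have no molecule column, so intervals and floors cover counting error only.

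Reads without a covered CDR3 (0.513% to 0.837% of a library) and out of frame or with a stop (1.36% to 2.33%) were set apart. V, D and J were the best hits. Productive reads were counted per V segment, and within it per J, CDR3 length, middle residue and amino acid clonotype, with the V segment's reads per library as offset. edgeR 4.0.16 (R 4.3.3, quasi-likelihood test, Benjamini-Hochberg, threshold 0.05) tested all segments in 1 table, for those with at least 100 reads in every library (21) within V. CD4SP against CD8SP had the mouse as a block, and KO against WT the pair number, since the design text names pairs. That number did not pair genotypes in the data: correlations of V usage deviations were -0.158, -0.0550 and 0.135 in CD4SP and -0.554, -0.289 and 0.500 in CD8SP. Genotype fits have no term for the mouse, although deviations of its 2 libraries correlated (0.194 to 0.634). Alternatives used DESeq2 1.42.0 and other settings. Measures were compared by exact sign flips in Python 3.11.15 (numpy 2.4.6, pandas 2.3.3). Methods were tested on simulated data with known changes. P-values measure only the spread between these libraries. Segment positions are from RefSeq (36 of 36 matched).

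Features named were those past the threshold, at most 5 per direction, or the 2 of smallest p, plus the 4 most read shared clonotypes of each segment and the 3 segments most alike. Members, lists and tests were chosen with earlier results of these data known. Added alternatives were chosen after seeing the data, leaving out nonproductive reads 1 base from a productive join and DESeq2 size factors for V usage between lineages.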

Additional observations from a re-analysis of the deposited data

Results flagged for a closer look

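Of 86 values of TRBV14 and TRBV15 that could be compared in both lineages, 4 moved one way between KO and WT in all 3 CD4SP pairs and the other way in all 3 CD8SP pairs. With so few pairs, some of 86 values would show such signs without any effect of genotype, so this count is not a result. No interaction model was fitted for them. Permuting the genotype labels over the CD4SP minus CD8SP difference of each mouse gave exact p-values of 0.1 to 0.2, where 0.1 is the smallest that 3 against 3 allow. The values had already been picked for their opposite signs, so these p-values are a description and decide nothing. The values follow, as KO minus WT in CD4SP minus KO minus WT in CD8SP. Hydropathy of positions 6 and 7 in TRBV14 differed by -0.102, from -0.0663 in CD4SP and 0.0362 in CD8SP. Added bases in TRBV15 joins with a D segment differed by 0.0850, from 0.0289 and -0.0561. The share of TRBJ2-5 within TRBV14 differed by 1.2 percentage points, from 0.588 and -0.612. The share of methionine (M) within TRBV15 differed by -0.0654 percentage points, from -0.0340 and 0.0315.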

How the results depend on the processing

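KO minus WT values of V usage stayed without a call under every alternative, and their signs were not stable near 0. Counting each clonotype once turned TRBV14 to 0.0017 in CD4SP, -0.0081 in CD8SP and 0.0103 for the interaction, and DESeq2 gave -0.0258 for TRBV14 and -0.0088 for TRBV15 in CD8SP. Leaving out each library or mouse gave -0.0461 to 0.0124 (TRBV14) and 0.0412 to 0.124 (TRBV15) in CD4SP, -0.0676 to 0.0409 and -0.0168 to 0.0527 in CD8SP, and -0.0655 to 0.0529 for the TRBV14 interaction. Between lineages, V usage of TRBV14 was -1.96 with DESeq2, -1.94 without clonotypes of 1 read and -1.62 with each counted once, and that of TRBV15 was -0.0278, 0.0393 and 0.123. The nonproductive TRBV14 value was -0.45 (adjusted p = 0.0502, edgeR) without reads near a productive join, and -0.70 to -0.61 without each mouse. Called J pairings of TRBV14 were 4 without clonotypes of 1 read, and 5 to 7 without each mouse. Called shared clonotypes of TRBV15 were 0 without clonotypes of 1 read and 0 to 1 without each mouse. Without clonotypes of 1 read, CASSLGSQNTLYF fell below the minimum of 6 libraries and was not tested. DESeq2 called 1 of TRBV14 (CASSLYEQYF).

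Without the replicate block, KO minus WT was -0.02 for TRBV14 and 0.08 for TRBV15 in CD4SP, and 0.0017 and 0.02 in CD8SP, and no call changed. With the replicate block in place of the mouse, 2 shared clonotypes of TRBV15 were called, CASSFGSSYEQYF (5.01) being added, and both met the minimum of 6 libraries through CD4SP alone. TRBV14 threonine was lost there (adjusted p = 0.0522, edgeR).

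V bases trimmed in TRBV14 turned from 0.0064 to -0.0066 without clonotypes of 1 read, and ranged from -0.0141 to 0.0294 without each mouse. Net charge of TRBV15 ranged from -0.0048 to 0.0031, or -0.0084 to 0.0024 against the other reads, and TRBJ1-2 within TRBV14 in CD8SP (KO minus WT) from -0.299 to 0.0406. Measures set against the other reads passed neither without clonotypes of 1 read (adjusted p at least 0.0540) nor counting clonotypes once (0.0574), nor with 5 mice, which cannot pass. With labels permuted without pairs, some lineage differences passed (adjusted p from 0.0042, exact tests) and others did not. Those of TRBV14 in length and V trimming and of TRBV15 in hydropathy, charge and TRBJ2 share passed under none of the alternatives that keep all 6 mice (lowest adjusted p = 0.101, 0.878, 0.255, 0.141 and 0.212, exact tests), and those of TRBV14 in added bases and TRBJ2 share and of TRBV15 in J trimming and TRBD1 share went no lower than 0.0585. CD4SP values of TRBV14 rest on the fewest reads.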
